A study of Mus musculus with 57 samples.

Results

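The subject is 40 autosomal imprinted genes, genes that are expressed mainly from the copy inherited from 1 parent, and the 3 histone marks H3K4me3, H3K27ac and H3K27me3 at their promoters. The genes were taken as a list of known imprinted genes and not by a rule on a value measured here, but with earlier results of these data known. Each curated RefSeq start site of a gene was taken as a promoter on mm10, with start sites of a gene under 1 kb apart merged and a window of 1 kb on each side, which gave 61 promoters of the 26393 autosomal promoters of 23827 genes. Promoters of a gene are numbered from its upstream end. The libraries are chromatin immunoprecipitations from brain cortex (9 per mark) and gastrocnemius muscle (10 per mark), 57 in all, from PSAPP mice killed at 13 months, a strain that carries transgenes of a mutant chimeric mouse and human amyloid precursor protein and of mutant human presenilin 1. Every mouse was PSAPP, had been housed singly and had received the same measured daily ration of a modified AIN-93 diet from 6 months of age, so cortex is compared with muscle and no mouse without the transgenes enters. Animal codes in the deposited names tie 9 mice to both tissues. The labels give no sex, and none was used. The study describes male and female mice, so both sexes are pooled in each tissue.

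Imprinting is set by DNA methylation laid down in 1 germ line at imprinting control regions and kept on that parental copy in the body's cells. The copy that is read usually carries H3K4me3 and H3K27ac at its promoter, marks of open promoters, while the silent copy carries DNA methylation or H3K27me3, the mark written by the Polycomb repressive complex. H3K4me3 and H3K27me3 called at 1 promoter can therefore lie on different parental copies, but peaks from mixed tissue separate neither the copies nor the cells, so in these data a promoter with both marks may also hold them in different cell types.

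H3K4me3 libraries held 9.50 to 18.99 M (M, 1000000) fragments in called peaks in cortex and 9.16 to 15.0 M in gastrocnemius. The ranges were 3.94 to 21.2 M and 15.7 to 27.3 M for H3K27ac, and 4.52 to 7.32 M and 2.99 to 18.2 M for H3K27me3. H3K27ac of cortex replicate 9 (3.94 M, others 14.4 to 21.2) and H3K27me3 of gastrocnemius replicate 5 (18.2 M, others 2.99 to 7.87) stood apart. Of the 13 imprinted promoters with H3K27ac in some cortex libraries, 0 had a peak in that replicate 9, and it alone lacked the peak at Phlda2, Rian and Slc22a3. Of the 16 with H3K27me3 in some gastrocnemius libraries, 13 had a peak in that replicate 5, and it alone had the peak at Asb4 promoter 2 and Peg12. No 2 libraries of a group shared over 0.207% of their peaks exactly. The tissue labels were checked on marker genes, chosen with earlier results of these data known. H3K4me3 at 11 promoters of cortex genes such as Gad1, Snap25 and Gfap summed to 183.96 to 232 fragments per 1000000 of peak fragments (FPM) in cortex and 13.3 to 27.7 in gastrocnemius, and at 9 promoters of muscle genes such as Ckm and Tnnt3 to 57.2 to 82.0 in cortex and 155 to 263 in gastrocnemius. Gad1, Snap25, Gfap and the first promoter of Rbfox3 had no H3K4me3 peak in gastrocnemius, and Ckm, Tnnt3, Myh1 and Myh4 none in cortex. H3K27ac sums of the cortex genes were 90.5 to 106 in cortex and 7.03 to 16.4 in gastrocnemius. For the muscle genes they were 30.6 to 35.4 and 72.6 to 108. H3K27me3 sums of the cortex genes overlapped, at 69.6 to 99.97 in cortex and 99.8 to 110 in gastrocnemius. For the muscle genes they were 32.7 to 51.7 and 0 to 16.4. Not every muscle gene followed its label: H3K4me3 at Mylpf promoter 1 was higher in cortex (mean 37.8 against 27.7, log2 difference 0.44, adjusted p = 2.0e-04), and at Actn3 it did not differ past the threshold (mean 32.0 against 30.1, adjusted p = 0.57). At 7 promoters of endothelial, fibroblast and immune genes (Pecam1, Cdh5, Col1a1, Pdgfra, Csf1r and Ptprc) the H3K4me3 sum was 37.4 to 51.4 in cortex and 67.1 to 95.8 in gastrocnemius. Both immune genes ran against that sum. Csf1r had H3K4me3 in 9 of 9 cortex and 4 of 10 gastrocnemius libraries (mean 3.47 against 0.665, Fisher's exact test, adjusted p = 0.022). Ptprc had it in 7 of 9 and 0 of 10 (Fisher's exact test, adjusted p = 0.0019). The part of such cells in the tissue differences below was not tested, and a change in a cell type's share cannot be told apart from a change within cells.

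H3K4me3 and H3K27me3 were called in every library at a larger share of the imprinted promoters than of all promoters, and H3K27ac at a smaller share. H3K4me3 was called in every cortex library at 42 of the 61 promoters (68.9%, against 59.3% of all autosomal promoters) and in every gastrocnemius library at 39 (63.9% against 57.4%). H3K27ac was called in every library at 32 promoters in cortex (52.5%, against 59.9% of all promoters) and at 31 in gastrocnemius (50.8% against 58.0%). H3K27me3 was called in every library at 20 promoters in cortex (32.8%, against 13.8% of all promoters) and at 16 in gastrocnemius (26.2% against 13.1%). These shares are descriptions without a test. No library of either tissue had a peak of H3K4me3 at 11 of the 61 promoters (18.03%, beside 31.4% of all promoters), of H3K27ac at 12 (19.7%, beside 24.4%) or of H3K27me3 at 24 (39.3%, beside 55.8%). The 4 promoters without a peak of any mark were the far upstream promoters 1 to 4 of Snrpn.

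**Figure D1:**
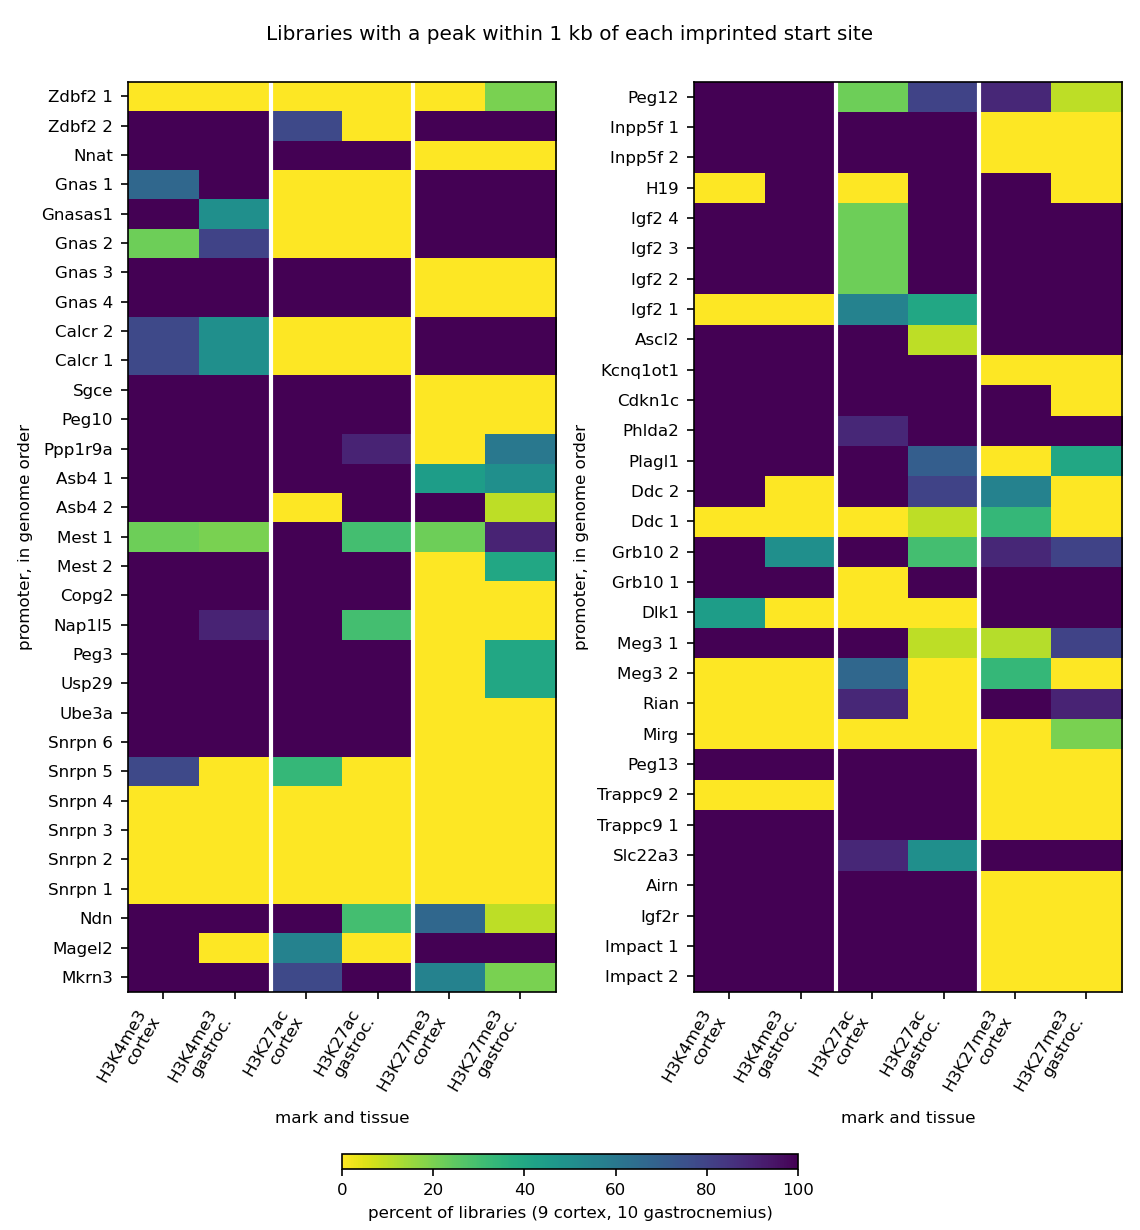
Percent of libraries with a peak within 1 kb of each of the 61 imprinted start sites (rows, in genome order, promoter numbers after genes with several) for each mark in cortex (9 libraries) and gastrocnemius (10 libraries). H19, Cdkn1c, Magel2 and Meg3 1 have rows that differ between the tissues, while rows from Peg13 to Impact hold no H3K27me3 except Slc22a3.

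Cortex was compared with gastrocnemius in 2 ways. Where every library of a mark had a peak, its level was compared by edgeR's quasi-likelihood test. A level is the number of fragments of called peaks that fall in the window when a peak's fragments are spread evenly over its length, per 1000000 scaled autosomal peak fragments (FPM). Where only some libraries had a peak, the numbers of libraries with a peak were compared by Fisher's exact test. An FDR under 0.1 counted as passing, with adjustment over all promoters tested.

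By level, H3K4me3 was higher in cortex at 14 of 37 imprinted promoters tested and higher in gastrocnemius at 15, while over all 14345 promoters tested 28.9% were higher in cortex and 25.4% in gastrocnemius. H3K27ac was higher in cortex at 9 of 23 and in gastrocnemius at 4, beside 26.2% and 24.2% of all. H3K27me3 was higher in cortex at 13 of 16 and in gastrocnemius at 0, beside 26.6% and 22.7% of all 2154 tested. The median log2 difference in H3K27me3 (cortex minus gastrocnemius) was 0.34 over the 16 and 0.016 over all. These 13 promoters belong to 8 genes of the 11 tested, and neighbouring promoters share a broad H3K27me3 peak, so they are not 13 separate measurements. With scaling to library size alone the median log2 difference of all promoters stood at 0.33 instead of 0.03 for H3K4me3, at 0.29 instead of 0.02 for H3K27ac and at 0.11 instead of 0.02 for H3K27me3, and calls over all promoters split 8786 higher in cortex to 1752 for H3K4me3, 7015 to 1169 for H3K27ac and 339 to 128 for H3K27me3, against 4139 to 3645, 3631 to 3353 and 573 to 490. Under scaling to library size alone, the H3K27me3 differences at Dlk1, Slc22a3 and the Gnas promoters tested no longer passed. The levels below are relative to the scaled median.

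By calls, H3K4me3 peaks were found in more cortex libraries at 6 of 13 imprinted promoters tested and in more gastrocnemius libraries at 2, beside 33.5% and 22.7% of all promoters tested. For H3K27ac the numbers were 10 and 7 of 26, beside 35.0% and 17.2%. For H3K27me3 they were 6 and 3 of 21, beside 15.1% and 19.5%.

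H19 on chromosome 7 had both active marks in gastrocnemius alone and H3K27me3 in cortex alone, while its neighbour Igf2 had less H3K4me3 and more H3K27me3 in cortex. H19 encodes a long RNA read from the maternal copy in muscle, and Igf2, read from the paternal copy, encodes insulin-like growth factor 2. At the H19 start site (chr7 position 142578146, minus strand) H3K4me3 was 4.89, 7.14 and 9.73 FPM in gastrocnemius (lowest, median and highest of 10 libraries) and had no peak in any cortex library (0 of 9 cortex and 10 of 10 gastrocnemius libraries, Fisher's exact test, adjusted p = 4.2e-05). H3K27ac followed, with 4.80 to 12.2 in gastrocnemius and no peak in cortex (Fisher's exact test, adjusted p = 5.3e-05). H3K27me3 was the reverse, at 8.39 to 11.2 in the 9 cortex libraries and without a peak in gastrocnemius (Fisher's exact test, adjusted p = 1.7e-04). The whole H19 gene was covered by H3K27me3 peaks in cortex (100% ± 0 of its length) and by none in gastrocnemius, where H3K27ac covered 96.2% ± 12.1.

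Cortex was not without H3K4me3 near H19. Upstream of H19, on the side of the control region that it shares with Igf2, 100% of the libraries of both tissues had an H3K4me3 peak at -2400 bp from the start site, and 88.9% of cortex libraries had an H3K27ac peak there. With a window of 2.5 kb on each side these upstream peaks fall inside, and the calls of H3K4me3 and H3K27ac at H19 then differed by 0 and -11.1 percentage points and no longer passed.

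Igf2 kept both marks in both tissues. In cortex, promoters 2 to 4 of Igf2 had the same H3K27me3 value in each library, from peaks of median length 16.6 kb. In gastrocnemius the H3K27me3 peaks had a median length of 10.7 kb, and the values of the 3 promoters differed in 4 of the 10 libraries. The H3K4me3 peaks reaching them had median lengths of 4.60 kb in cortex and 5.50 kb in gastrocnemius. At promoter 3 of Igf2 H3K4me3 was 3.35, 4.35 and 5.80 in cortex and 9.82, 12.7 and 17.6 in gastrocnemius, with no overlap between the tissues (log2 difference -1.57 ± 0.14 (SE), adjusted p = 5.4e-11). Promoters 2 and 4 of Igf2 differed by -1.95 and -2.05 on the log2 scale (adjusted p = 4.8e-10 and 2.8e-05). At promoter 4 the cortex values spread widely, 0.229, 3.96 and 5.80, beside 7.34, 11.5 and 16.4 in gastrocnemius. H3K27ac was called at these 3 promoters in 2 of 9 cortex and 10 of 10 gastrocnemius libraries (Fisher's exact test, adjusted p = 0.0021). H3K27me3 moved the other way, at promoter 3 from 6.72, 9.71 and 10.9 in gastrocnemius to 10.9, 13.1 and 15.1 in cortex (log2 difference 0.46 ± 0.07 (SE), adjusted p = 3.2e-05). At promoter 1 of Igf2, the most upstream, no library had H3K4me3, and H3K27me3 was 10.9 to 14.3 in cortex and 1.07 to 10.2 in gastrocnemius (log2 difference 1.02 ± 0.24 (SE), adjusted p = 0.0014).

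The sequence of promoter 3 of Igf2, shown because all 3 marks at it differed between the tissues, is given from 250 bases before to 50 after the start site, 5′ to 3′ on the transcript's strand (chr7:142658755-142659054, mm10 (GRCm38.p6), minus strand, RefSeq). Capitals mark CG dinucleotides, the sites of DNA methylation, of which it holds 24.
Igf2 promoter 3: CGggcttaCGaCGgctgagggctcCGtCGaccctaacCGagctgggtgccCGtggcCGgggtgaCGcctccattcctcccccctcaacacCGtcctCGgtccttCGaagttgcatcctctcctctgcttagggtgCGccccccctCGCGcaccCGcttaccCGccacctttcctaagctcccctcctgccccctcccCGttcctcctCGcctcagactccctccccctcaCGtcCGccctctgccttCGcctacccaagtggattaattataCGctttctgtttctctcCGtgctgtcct

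**Figure D2:**
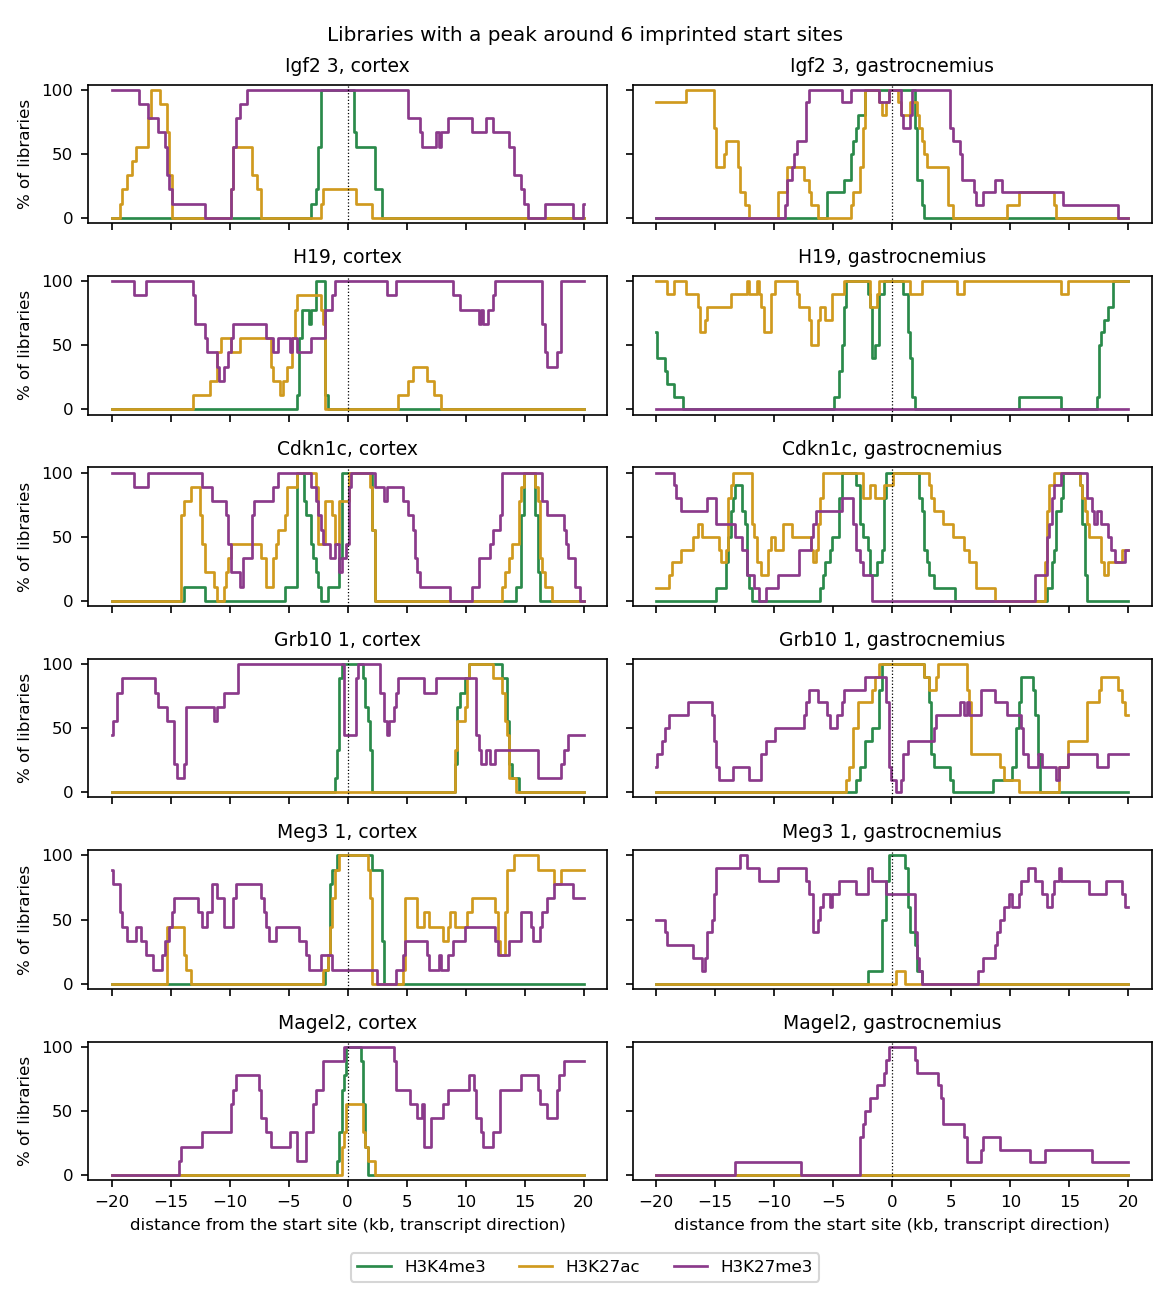
Percent of libraries with a peak of each mark (H3K4me3 green, H3K27ac yellow, H3K27me3 purple) against distance from 6 imprinted start sites, from 20 kb upstream to 20 kb downstream in steps of 200 bp, in cortex (left, 9 libraries) and gastrocnemius (right, 10 libraries). At H19 the purple line is at 100% in cortex and at 0 in gastrocnemius, and the green line stands at 100% upstream of the start site in both.

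In the neighbouring cluster on chromosome 7, Cdkn1c had H3K27me3 within 1 kb of its start site in cortex alone. Cdkn1c encodes a maternally expressed inhibitor of cyclin-dependent kinases. H3K27me3 was 3.87 to 8.23 in the 9 cortex libraries and absent as a peak from the 10 gastrocnemius libraries (Fisher's exact test, adjusted p = 1.7e-04). Farther upstream gastrocnemius had the mark too, with a peak in 80% of its libraries and 100% of cortex libraries at -3800 bp from the Cdkn1c start site. H3K4me3 was called at Cdkn1c in every library but was 6.77, 10.6 and 11.8 in cortex and 20.6, 24.1 and 33.8 in gastrocnemius, without overlap (log2 difference -1.37 ± 0.12 (SE), adjusted p = 9.2e-11). H3K27ac at Cdkn1c was also lower in cortex (log2 difference -0.67 ± 0.15 (SE), adjusted p = 6.3e-04).

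Phlda2, a maternally expressed gene known for restraining placental growth, had H3K4me3 of 5.45 to 10.5 in cortex and 13.2 to 22.6 in gastrocnemius (log2 difference -1.12 ± 0.13 (SE), adjusted p = 1.2e-08). Its H3K27me3 was higher in cortex (log2 difference 0.35 ± 0.08 (SE), adjusted p = 0.0021). Ascl2, a transcription factor of the trophoblast, went the other way in H3K4me3, with 9.40 to 13.2 in cortex and 3.32 to 8.28 in gastrocnemius (log2 difference 1.19 ± 0.15 (SE), adjusted p = 5.6e-08). H3K27ac at Ascl2 was called in 9 of 9 cortex and 1 of 10 gastrocnemius libraries (Fisher's exact test, adjusted p = 4.2e-04), while its H3K27me3 levels overlapped (log2 difference -0.09 ± 0.06 (SE), adjusted p = 0.46). Kcnq1ot1, the paternally expressed antisense RNA whose promoter is the cluster's control region, had no H3K27me3 peak within 1 kb of its start site in any library, while peaks covered 0.985% ± 1.9999 (SD) of the gene in cortex and none of it in gastrocnemius. H3K4me3 at the start site was lower in cortex (18.98 to 29.5 against 29.9 to 45.9, log2 difference -0.67 ± 0.10 (SE), adjusted p = 1.3e-06), with the opposite sign when the whole count of the peak was used, and its H3K27ac difference did not pass (log2 difference 0.22 ± 0.12 (SE), adjusted p = 0.15).

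Grb10 on chromosome 11 differed in opposite directions at its 2 promoters in H3K4me3 and H3K27ac, but not in H3K27me3. It encodes an adaptor that dampens insulin and growth factor signalling, and is known to be read from the maternal copy in most tissues and from the paternal copy, at downstream promoters, in neurons. At the upstream promoter 1 H3K4me3 was 3.52, 4.89 and 6.43 in cortex and 13.0, 16.6 and 19.96 in gastrocnemius, without overlap (log2 difference -1.76 ± 0.12 (SE), adjusted p = 1.8e-13). H3K27ac was called there in 0 of 9 cortex and 10 of 10 gastrocnemius libraries (Fisher's exact test, adjusted p = 5.3e-05). H3K27me3 at promoter 1 was 3.30, 5.43 and 9.22 in cortex and 0.722, 2.59 and 4.54 in gastrocnemius (log2 difference 1.27 ± 0.27 (SE), adjusted p = 6.6e-04), and these ranges overlapped.

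At promoter 2 of Grb10, downstream of the first, H3K4me3 and H3K27ac were called in more cortex libraries, and H3K27me3 did not differ past the threshold. H3K4me3 was called in 9 of 9 cortex and 5 of 10 gastrocnemius libraries (Fisher's exact test, adjusted p = 0.058), with 1.77, 7.92 and 9.19 in cortex and 0, 0.0418 and 6.42 in gastrocnemius. The call did not pass with peaks counted within 2.5 kb, without the 6 libraries per mark whose names carry an S number, or without 1 of 5 gastrocnemius libraries in turn. H3K27ac was called in 9 of 9 cortex and 3 of 10 gastrocnemius libraries (Fisher's exact test, adjusted p = 0.0078), a call lost under stricter peak rules. H3K27me3 was called in 8 of 9 cortex and 8 of 10 gastrocnemius libraries (Fisher's exact test, adjusted p = 1).

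The sequences of both promoters of Grb10 are shown because H3K4me3 and H3K27ac at them went in opposite directions. Promoter 1 lies at chr11:12037371-12037670 and promoter 2 at chr11:12027922-12028221 (mm10, GRCm38.p6, both minus strand, RefSeq), each from 250 bases before to 50 after its start site, with CG in capitals. Promoter 1 holds 45 CG dinucleotides and promoter 2 holds 9.
Grb10 promoter 1: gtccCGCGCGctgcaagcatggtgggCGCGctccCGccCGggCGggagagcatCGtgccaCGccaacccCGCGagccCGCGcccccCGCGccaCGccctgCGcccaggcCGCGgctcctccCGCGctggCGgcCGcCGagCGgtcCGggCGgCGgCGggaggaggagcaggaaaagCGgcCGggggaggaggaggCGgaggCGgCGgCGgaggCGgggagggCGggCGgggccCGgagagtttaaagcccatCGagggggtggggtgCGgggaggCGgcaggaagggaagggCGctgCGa
Grb10 promoter 2: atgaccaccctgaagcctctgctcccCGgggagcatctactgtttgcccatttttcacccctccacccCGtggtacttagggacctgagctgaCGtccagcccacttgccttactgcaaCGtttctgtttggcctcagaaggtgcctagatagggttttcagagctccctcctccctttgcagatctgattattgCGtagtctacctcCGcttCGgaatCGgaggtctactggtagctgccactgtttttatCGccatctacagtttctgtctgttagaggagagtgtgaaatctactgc

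Next to Grb10, Ddc encodes aromatic L-amino acid decarboxylase, which makes dopamine and serotonin. Its promoter 2 had H3K4me3 in 9 of 9 cortex and 0 of 10 gastrocnemius libraries (Fisher's exact test, adjusted p = 4.2e-05), at 2.38 to 4.15 in cortex. H3K27me3 at the same promoter was called in 5 of 9 cortex and 0 of 10 gastrocnemius libraries (Fisher's exact test, adjusted p = 0.039). That call did not pass without gastrocnemius replicate 1, 3, 6, 9 or 10 or without the S-number libraries (3 of 7 and 0 of 6, Fisher's exact test, adjusted p = 0.37). H3K27ac was called in 9 of 9 cortex and 8 of 10 gastrocnemius libraries (Fisher's exact test, adjusted p = 0.55). Promoter 1 of Ddc had no H3K4me3.

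**Figure D3:**
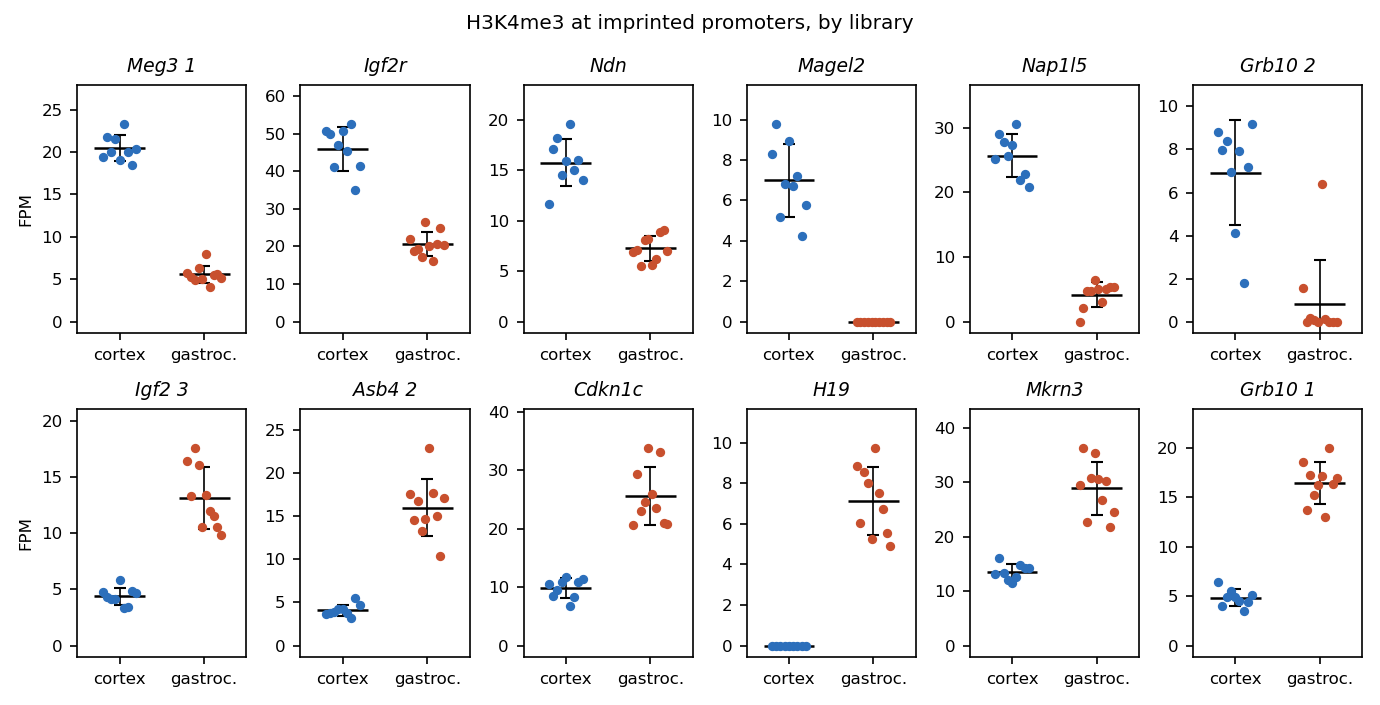
H3K4me3 in FPM within 1 kb of 12 imprinted start sites, 1 point per library (9 cortex in blue, 10 gastrocnemius in red-brown), with the mean as a bar and the SD as whiskers, and libraries without a peak at 0. The upper panels hold promoters higher in cortex and the lower ones promoters higher in gastrocnemius, and the points of the tissues do not overlap in any panel but Grb10 2.

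On chromosome 12, Meg3 and Rian, maternally expressed long RNAs of the Dlk1 and Meg3 cluster, had H3K27ac called in more cortex libraries, and Meg3 promoter 1 also had more H3K4me3 in cortex. Meg3 promoter 1 had H3K4me3 of 18.4, 20.1 and 23.3 in cortex and 4.12, 5.42 and 7.92 in gastrocnemius, the widest gap upward in cortex among the imprinted levels tested and without overlap (log2 difference 1.87 ± 0.11 (SE), adjusted p = 6.7e-15). H3K27ac was called there in 9 of 9 cortex and 1 of 10 gastrocnemius libraries (Fisher's exact test, adjusted p = 4.2e-04). H3K27me3 at Meg3 promoter 1 was called in 1 of 9 cortex and 8 of 10 gastrocnemius libraries (Fisher's exact test, adjusted p = 0.024). Without the libraries whose names carry an S number, 4 of them among the 8, the call did not pass (1 of 7 and 4 of 6, Fisher's exact test, adjusted p = 0.26).

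Along the gene, H3K27ac peaks covered 47.9% ± 18.3 of Meg3 in cortex and 0.260% ± 0.823 in gastrocnemius (mean ± SD of 9 and 10 libraries). Rian, which hosts small nucleolar RNAs, was covered to 19.9% ± 6.40 in cortex, and Mirg, which hosts microRNAs, to 55.5% ± 18.3, while no gastrocnemius library had H3K27ac in either gene. At the start sites, H3K27ac was called at Rian in 8 of 9 cortex and 0 of 10 gastrocnemius libraries (Fisher's exact test, adjusted p = 4.2e-04), at Meg3 promoter 2 in 6 of 9 cortex and 0 of 10 gastrocnemius libraries (Fisher's exact test, adjusted p = 0.0078) and at Mirg in none. None of these 3 start sites had H3K4me3 in any library. H3K27me3 was called at Rian in 9 of 9 cortex and 9 of 10 gastrocnemius libraries, at Mirg in 0 of 9 cortex and 2 of 10 gastrocnemius libraries and at Meg3 promoter 2 in 3 of 9 cortex and 0 of 10 gastrocnemius libraries, none of which passed Fisher's exact test.

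Dlk1, the paternally expressed gene of the cluster, encodes a membrane protein related to Notch ligands. It had H3K27me3 in every library, 9.22 to 13.3 in cortex and 7.03 to 11.0 in gastrocnemius (log2 difference 0.26 ± 0.08 (SE), adjusted p = 0.013). That difference did not pass with scaling to library size alone. H3K4me3 was called in 4 of 9 cortex and 0 of 10 gastrocnemius libraries (Fisher's exact test, adjusted p = 0.058), a call that was lost when any of the 10 gastrocnemius libraries, or any of the 4 cortex libraries with the peak, was left out. No library had H3K27ac at Dlk1.

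The sequence of Meg3 promoter 1, printed for its gain of H3K4me3 and H3K27ac in cortex, lies at chr12:109540746-109541045 (mm10, GRCm38.p6, plus strand, RefSeq) and holds 13 CG dinucleotides, in capitals.
Meg3 promoter 1: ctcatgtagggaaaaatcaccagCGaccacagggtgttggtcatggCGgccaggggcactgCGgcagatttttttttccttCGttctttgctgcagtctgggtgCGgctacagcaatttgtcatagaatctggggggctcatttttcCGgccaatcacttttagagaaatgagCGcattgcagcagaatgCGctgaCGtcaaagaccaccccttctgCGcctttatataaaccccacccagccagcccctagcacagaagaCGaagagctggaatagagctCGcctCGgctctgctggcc

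The cluster on chromosome 7 that corresponds to the human Prader-Willi region split. Ndn and Magel2, which encode related MAGE proteins and are read from the paternal copy, had more H3K4me3 in cortex. Ndn was 11.7, 15.9 and 19.6 in cortex and 5.55, 7.06 and 9.05 in gastrocnemius, without overlap (log2 difference 1.12 ± 0.12 (SE), adjusted p = 2.8e-09), with H3K27ac in 9 of 9 cortex and 3 of 10 gastrocnemius libraries (Fisher's exact test, adjusted p = 0.0078). Magel2 had H3K4me3 in 9 of 9 cortex and 0 of 10 gastrocnemius libraries (Fisher's exact test, adjusted p = 4.2e-05), at 4.23 to 9.78 in cortex. It had H3K27ac in 5 of 9 cortex and 0 of 10 gastrocnemius libraries (Fisher's exact test, adjusted p = 0.024), a call lost under stricter peak rules. H3K27me3 was not lower in cortex at either gene. It was called at Magel2 in every library and was higher in cortex (6.83 to 11.7 against 6.54 to 9.48, log2 difference 0.34 ± 0.09 (SE), adjusted p = 0.0039), and at Ndn in 6 of 9 cortex and 1 of 10 gastrocnemius libraries (Fisher's exact test, adjusted p = 0.068). The Ndn call was lost under most single omissions of a library.

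Mkrn3, an E3 ubiquitin ligase, and Peg12, both also read from the paternal copy, had less H3K4me3 in cortex. Mkrn3 was 11.5 to 16.2 in cortex and 21.7 to 36.3 in gastrocnemius (log2 difference -1.09 ± 0.11 (SE), adjusted p = 4.8e-10), and Peg12 was 5.04 to 8.62 and 10.6 to 15.3 (log2 difference -0.81 ± 0.12 (SE), adjusted p = 1.4e-06). H3K27me3 was called at Peg12 in 8 of 9 cortex and 1 of 10 gastrocnemius libraries (Fisher's exact test, adjusted p = 0.0063) and H3K27ac in 2 of 9 cortex and 8 of 10 gastrocnemius libraries (Fisher's exact test, adjusted p = 0.049). The H3K27ac call at Peg12 was lost under most single omissions and without the S-number libraries (2 of 7 and 5 of 6, Fisher's exact test, adjusted p = 0.17). Its H3K27me3 call was lost under stricter peak rules. At Mkrn3 the calls of H3K27me3 (5 of 9 cortex and 2 of 10 gastrocnemius libraries) and of H3K27ac (7 of 9 cortex and 10 of 10 gastrocnemius libraries) did not pass.

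Snrpn encodes a spliceosome protein of neurons and has 6 promoters here. Its most downstream one, promoter 6, had H3K4me3 and H3K27ac in every library, both higher in cortex (log2 difference 0.42 ± 0.11 (SE), adjusted p = 0.0017 for H3K4me3 and log2 difference 1.13 ± 0.12 (SE), adjusted p = 2.2e-08 for H3K27ac). Promoter 5 of Snrpn had H3K4me3 in 7 of 9 cortex and 0 of 10 gastrocnemius libraries (Fisher's exact test, adjusted p = 0.0019). Ube3a, an E3 ubiquitin ligase whose paternal copy is silenced in neurons, had among the highest levels of the members, 44.4 to 79.4 in cortex and 54.9 to 92.6 in gastrocnemius, and its lower value in cortex (log2 difference -0.30 ± 0.10 (SE), adjusted p = 0.015) had the opposite sign without the scaling and with whole peak counts. No library had H3K27me3 within 1 kb of a start site of Ube3a or Snrpn.

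The sequence of the Magel2 promoter, shown because H3K4me3 came and went between the tissues while H3K27me3 was called in all 19 libraries, lies at chr7:62376729-62377028 (mm10, GRCm38.p6, plus strand, RefSeq) and holds 10 CG dinucleotides, in capitals.
Magel2: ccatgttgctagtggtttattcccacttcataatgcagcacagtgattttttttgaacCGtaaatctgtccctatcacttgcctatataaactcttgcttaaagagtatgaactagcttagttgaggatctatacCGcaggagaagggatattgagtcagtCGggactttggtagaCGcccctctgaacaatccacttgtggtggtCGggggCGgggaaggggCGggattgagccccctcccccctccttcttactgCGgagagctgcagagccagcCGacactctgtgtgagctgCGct

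**Figure D4:**
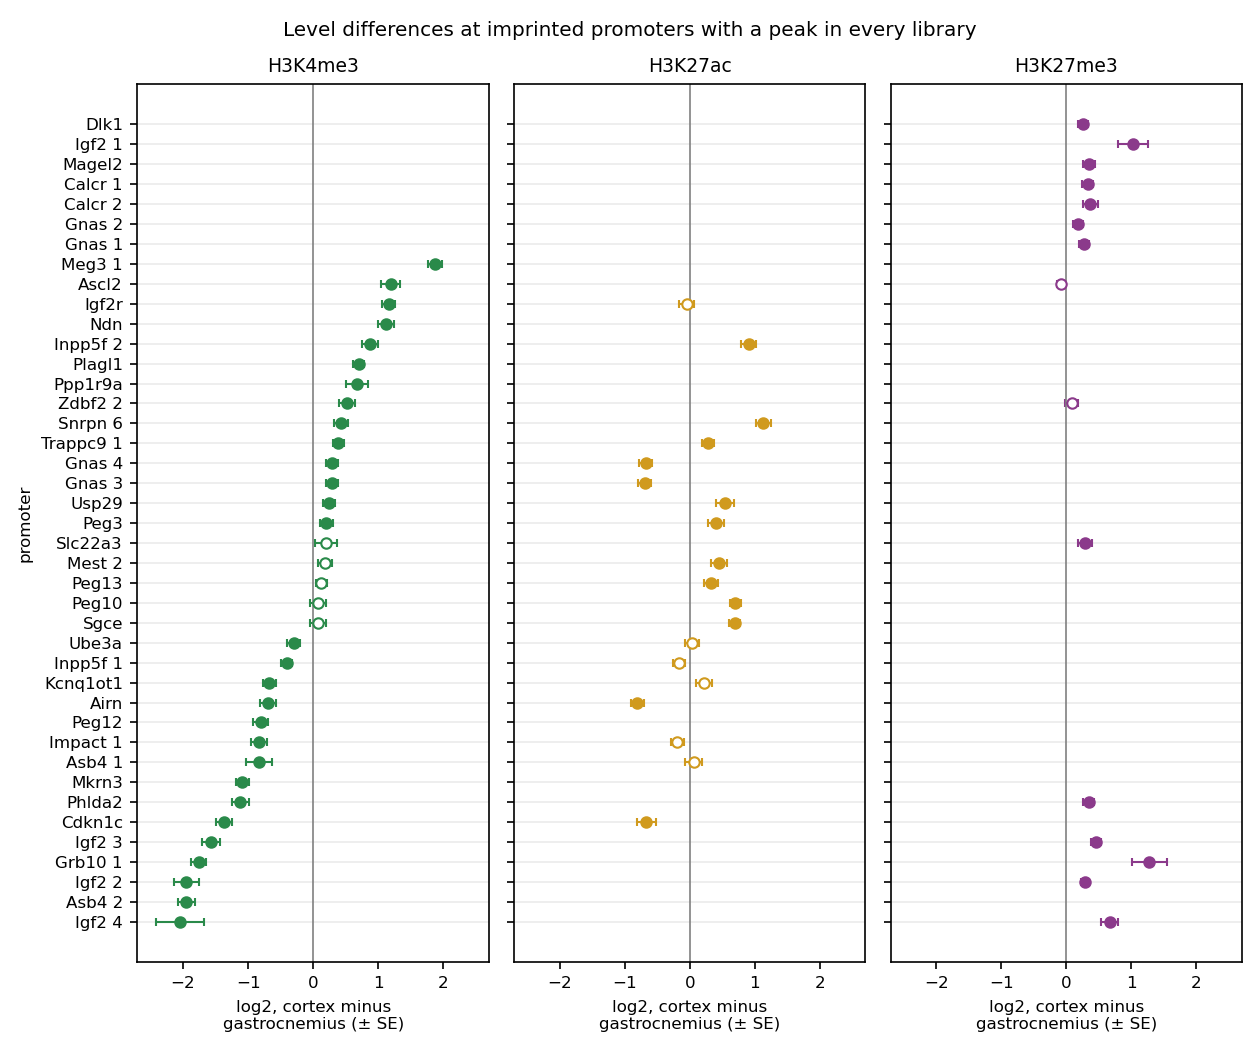
Difference in level, log2 cortex minus gastrocnemius with the SE as whiskers, for imprinted promoters past the level test in at least 1 mark, in H3K4me3 (green), H3K27ac (yellow) and H3K27me3 (purple), with filled points for an FDR under 0.1 in that mark and open points for the others. Promoters without a point in a panel lacked a peak in some library, and every filled purple point lies to the right of 0.

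In the cluster of chromosome 6 around Peg10, the paired start sites of Peg10, a gene derived from a retrotransposon, and Sgce, epsilon-sarcoglycan, lie within 1 peak, so their values are nearly the same measurement. H3K4me3 there did not differ past the threshold (log2 difference 0.08 ± 0.12 (SE), adjusted p = 0.62), and H3K27ac was higher in cortex (log2 difference 0.70 ± 0.09 (SE), adjusted p = 4.3e-07 at Peg10 and 0.69 at Sgce). Ppp1r9a, which encodes the neuronal actin-binding protein neurabin, had more H3K4me3 in cortex (13.3 to 31.6 against 11.0 to 19.5, log2 difference 0.67 ± 0.17 (SE), adjusted p = 0.0013) and H3K27me3 in 0 of 9 cortex and 6 of 10 gastrocnemius libraries (Fisher's exact test, adjusted p = 0.039). The H3K27me3 call did not pass without gastrocnemius replicate 3, 9 or 10 or without the S-number libraries (0 of 7 and 3 of 6, Fisher's exact test, adjusted p = 0.19). Its H3K27ac was 6.01 to 12.9 in cortex and 0 to 3.69 in gastrocnemius, where 1 library had no peak, so that its level was not tested.

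Asb4, whose protein carries a SOCS box, showed the reverse at its promoter 2. H3K4me3 there was 3.24, 3.90 and 5.50 in cortex and 10.4, 15.9 and 22.9 in gastrocnemius, without overlap (log2 difference -1.95 ± 0.13 (SE), adjusted p = 3.7e-13). H3K27ac was called in 0 of 9 cortex and 10 of 10 gastrocnemius libraries (Fisher's exact test, adjusted p = 5.3e-05) and H3K27me3 in 9 of 9 cortex and 1 of 10 gastrocnemius libraries (Fisher's exact test, adjusted p = 1.0e-03). Promoter 1 of Asb4 was also lower in H3K4me3 in cortex (log2 difference -0.83 ± 0.19 (SE), adjusted p = 7.1e-04) but not past the threshold in H3K27ac (0.06, adjusted p = 0.75) or in H3K27me3 calls. Both start sites of Calcr, the calcitonin receptor, had H3K27me3 in every library, higher in cortex (log2 difference 0.33 ± 0.08 (SE), adjusted p = 0.0024 at promoter 1 and 0.37 at promoter 2), had no H3K27ac, and had small H3K4me3 peaks in 7 of 9 cortex and 5 of 10 gastrocnemius libraries (Fisher's exact test, adjusted p = 0.47).

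Further along chromosome 6, Mest, a paternally expressed gene for a protein of the hydrolase family, had H3K4me3 and H3K27ac at promoter 2 in every library. Its H3K27ac was higher in cortex (log2 difference 0.44 ± 0.12 (SE), adjusted p = 0.0043), and H3K4me3 did not pass (log2 difference 0.18 ± 0.11 (SE), adjusted p = 0.18). At promoter 1 of Mest H3K27me3 was called in 2 of 9 cortex and 9 of 10 gastrocnemius libraries (Fisher's exact test, adjusted p = 0.024), and H3K27ac in 9 of 9 cortex and 3 of 10 gastrocnemius libraries (Fisher's exact test, adjusted p = 0.0078). Without the S-number libraries H3K27me3 at Mest promoter 1 did not pass (2 of 7 and 5 of 6, Fisher's exact test, adjusted p = 0.26). Its H3K27ac call did not pass with a window of 2.5 kb or when weak peaks were left out. Copg2, a subunit of the coatomer of transport vesicles, differed past the threshold in neither H3K4me3 (log2 difference -0.04 ± 0.11 (SE), adjusted p = 0.77) nor H3K27ac (0.06, adjusted p = 0.67).

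Nap1l5, an intronless paternally expressed gene of the nucleosome assembly protein family, had H3K4me3 of 20.9, 25.6 and 30.6 in cortex and 0, 4.87 and 6.47 in gastrocnemius, and the ranges did not overlap. Because 1 gastrocnemius library had no peak there, the level was not tested, and the call test did not pass (9 of 9 cortex and 9 of 10 gastrocnemius libraries). H3K27ac at Nap1l5 was called in 9 of 9 cortex and 3 of 10 gastrocnemius libraries (Fisher's exact test, adjusted p = 0.0078).

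Gnas on chromosome 2 divided into promoters with and without Polycomb's mark. Gnas encodes the stimulatory G protein subunit, its upstream promoters 1 and 2 give the transcripts of Nesp55 and XLαs, and Gnasas1 (Nespas) is the antisense RNA that starts between them. These upstream start sites had H3K27me3 in all 19 libraries and H3K27ac in none. H3K27me3 was higher in cortex at Gnas promoter 1 (9.40 to 10.8 against 5.44 to 10.4, log2 difference 0.27 ± 0.08 (SE), adjusted p = 0.014) and promoter 2 (log2 difference 0.18 ± 0.07 (SE), adjusted p = 0.072), and not past the threshold at Gnasas1 (log2 difference 0.38 ± 0.19 (SE), adjusted p = 0.11). The result at promoter 2 did not pass with mouse as a block or without the S-number libraries, and neither Gnas promoter passed with scaling to library size alone. H3K4me3 was called at Gnasas1 in 9 of 9 cortex and 5 of 10 gastrocnemius libraries (Fisher's exact test, adjusted p = 0.058), with 7.13 to 10.1 in cortex and 0 to 5.93 in gastrocnemius. The Gnasas1 call did not pass without gastrocnemius replicate 1, 2, 5, 9 or 10 or without the S-number libraries (7 of 7 and 4 of 6, Fisher's exact test, adjusted p = 0.27). At Gnas promoter 2 it was called in 2 of 9 cortex and 8 of 10 gastrocnemius libraries (Fisher's exact test, adjusted p = 0.045), a call lost under most omissions of a gastrocnemius library and a direction that turned when the lowest-scoring peaks were left out or the window was wider, and at promoter 1 in 6 of 9 cortex and 10 of 10 gastrocnemius libraries (Fisher's exact test, adjusted p = 0.14).

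Promoters 3 (exon 1A) and 4 of Gnas lay within 1 H3K4me3 peak of median length 6.00 kb in cortex and 12.7 kb in gastrocnemius, so they have a single H3K4me3 value. It was 23.9 to 39.7 in cortex and 22.6 to 33.2 in gastrocnemius (log2 difference 0.29 ± 0.10 (SE), adjusted p = 0.014), and had the opposite sign when the whole count of the peak was used. H3K27ac was lower in cortex at both (log2 difference -0.69 ± 0.10 (SE), adjusted p = 4.6e-06 at promoter 3 and -0.68 at promoter 4). No library had H3K27me3 at either.

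The sequence of Gnas promoter 3 is shown as one without H3K27me3, beside its upstream neighbours that carry it. It lies at chr2:174327499-174327798 (mm10, GRCm38.p6, plus strand, RefSeq) and holds 27 CG dinucleotides, in capitals.
Gnas promoter 3: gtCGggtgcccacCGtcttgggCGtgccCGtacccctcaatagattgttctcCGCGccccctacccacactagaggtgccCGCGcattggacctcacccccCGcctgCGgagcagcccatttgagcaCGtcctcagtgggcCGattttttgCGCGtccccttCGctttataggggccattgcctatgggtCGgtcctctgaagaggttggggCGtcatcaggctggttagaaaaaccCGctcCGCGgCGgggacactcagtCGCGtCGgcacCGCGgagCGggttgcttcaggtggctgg

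**Figure D5:**
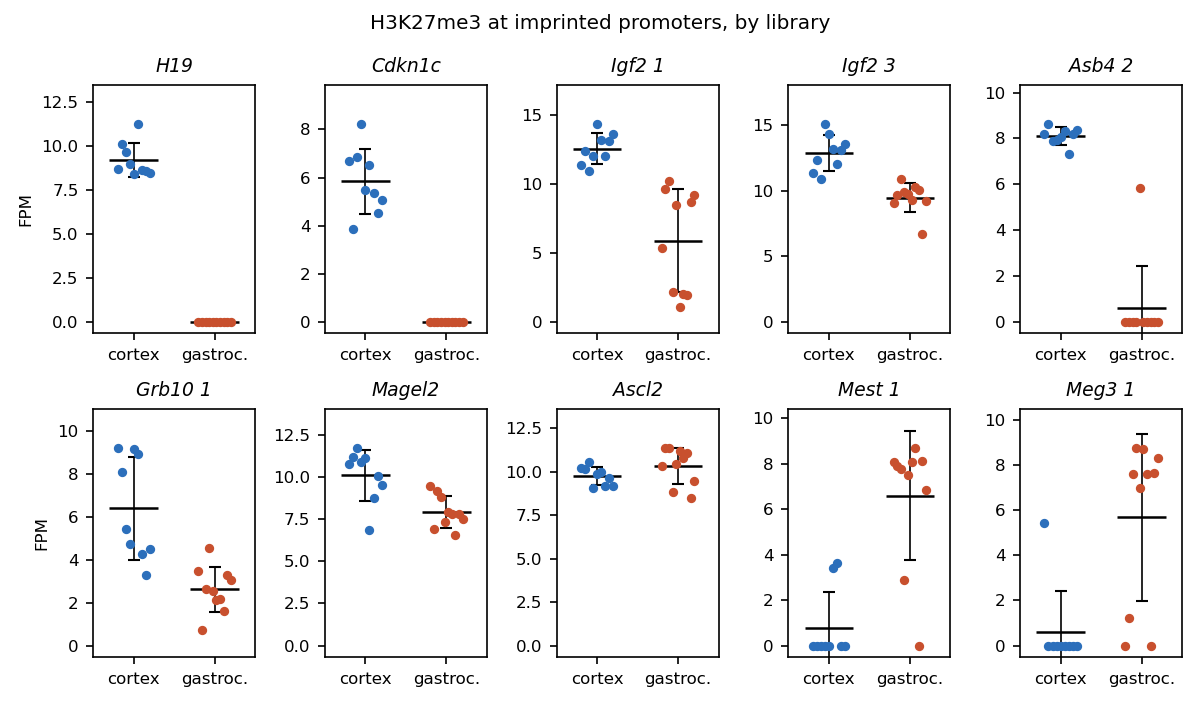
H3K27me3 in FPM within 1 kb of 10 imprinted start sites, 1 point per library (9 cortex in blue, 10 gastrocnemius in red-brown), with the mean as a bar and the SD as whiskers, and libraries without a peak at 0. H19 and Cdkn1c are at 0 in every gastrocnemius library, and Mest 1 and Meg3 1 at 0 in most cortex libraries.

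On chromosome 17, Igf2r, the maternally expressed receptor that carries IGF2 to lysosomes, and Airn, the paternal antisense RNA that starts in an intron of Igf2r, differed in opposite directions in H3K4me3. Igf2r H3K4me3 was 34.9, 47.1 and 52.6 in cortex and 16.2, 20.1 and 26.4 in gastrocnemius, without overlap (log2 difference 1.16 ± 0.10 (SE), adjusted p = 3.4e-11). The H3K4me3 peak there was 2.60 kb long in cortex and 5.20 kb in gastrocnemius (medians). Spreading fragments over a longer peak can lower the value in the window, and whether peak length has a part in this difference was not tested. H3K27ac at Igf2r did not pass (log2 difference -0.05 ± 0.12 (SE), adjusted p = 0.78), but was lower in cortex with a window of 2.5 kb (-0.54) and with the whole count of the peak (-3.61). Airn was lower in cortex in H3K4me3 (11.8 to 15.4 against 14.9 to 30.0, log2 difference -0.69 ± 0.12 (SE), adjusted p = 1.7e-05) and in H3K27ac (3.65 to 6.55 against 8.43 to 10.4, log2 difference -0.80 ± 0.09 (SE), adjusted p = 1.7e-07). In gastrocnemius the H3K27ac values of Airn and Igf2r were the same number in 9 of 10 libraries, an average over a peak of median length 63.8 kb that spans both, whereas the cortex peaks had median lengths of 5.80 kb at Airn and 3.20 kb at Igf2r. Slc22a3, an organic cation transporter of the same cluster, had H3K4me3 and H3K27me3 in all 19 libraries of each mark, and of these H3K27me3 was higher in cortex (log2 difference 0.28 ± 0.11 (SE), adjusted p = 0.045). That result did not pass with scaling to library size alone or without the S-number libraries. H3K4me3 at Slc22a3 was not past the threshold (0.20, adjusted p = 0.36), nor were the H3K27ac calls (8 of 9 cortex and 5 of 10 gastrocnemius libraries), which passed without cortex replicate 9 (8 of 8 and 5 of 10, Fisher's exact test, adjusted p = 0.066).

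Peg3, a paternally expressed zinc finger gene, and Usp29, a deubiquitinase gene, start side by side on chromosome 7 and share their peaks. H3K4me3 was slightly higher in cortex at both (log2 difference 0.20 ± 0.10 (SE), adjusted p = 0.093 for Peg3 and log2 difference 0.24 ± 0.09 (SE), adjusted p = 0.036 for Usp29), which for Peg3 was lost under 12 of the 19 single omissions. H3K27ac was also higher in cortex (log2 difference 0.40 ± 0.13 (SE), adjusted p = 0.012 for Peg3 and 0.54 for Usp29). Plagl1, a zinc finger gene that regulates other imprinted genes, had more H3K4me3 in cortex (26.0 to 33.4 against 15.3 to 22.8, log2 difference 0.70 ± 0.09 (SE), adjusted p = 5.0e-08). H3K27me3 was called at Peg3 and Plagl1 in 0 of 9 cortex and 4 of 10 gastrocnemius libraries each, without passing Fisher's exact test (adjusted p = 0.2).

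Zdbf2, a zinc finger gene on chromosome 1, had H3K4me3 and H3K27me3 in every library at promoter 2, with more H3K4me3 in cortex (log2 difference 0.52 ± 0.13 (SE), adjusted p = 9.7e-04), no H3K27me3 difference past the threshold (log2 difference 0.08 ± 0.10 (SE), adjusted p = 0.55) and H3K27ac in 7 of 9 cortex and 0 of 10 gastrocnemius libraries (Fisher's exact test, adjusted p = 0.0021). Its promoter 1 had neither active mark. Inpp5f, which encodes a phosphoinositide phosphatase, had opposite changes at its 2 promoters, of which the downstream one inside the gene is the imprinted one. Promoter 2 of Inpp5f was higher in cortex in H3K4me3 (16.3 to 20.9 against 6.46 to 13.9, log2 difference 0.88 ± 0.12 (SE), adjusted p = 6.8e-07) and in H3K27ac (log2 difference 0.91 ± 0.12 (SE), adjusted p = 1.0e-06). Promoter 1 was lower in H3K4me3 (log2 difference -0.40 ± 0.09 (SE), adjusted p = 2.4e-04), which did not pass without the scaling.

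Nnat, a paternally expressed proteolipid gene of the developing brain, had H3K4me3 and H3K27ac in every library of both tissues with no difference past the threshold, and its H3K4me3 spread widely in gastrocnemius (4.26, 7.11 and 35.5). Impact, a paternally expressed regulator of translation on chromosome 18, was lower in H3K4me3 in cortex at promoter 1 (log2 difference -0.83 ± 0.13 (SE), adjusted p = 2.9e-06) and not at promoter 2 (-0.01, adjusted p = 0.97), although both lie in 1 peak, and with the whole count of that peak promoter 1 had the opposite sign. Peg13, a paternal long RNA within Trappc9, did not pass in H3K4me3 (log2 difference 0.13 ± 0.08 (SE), adjusted p = 0.21) and was higher in cortex in H3K27ac (log2 difference 0.33 ± 0.11 (SE), adjusted p = 0.013). Trappc9, a subunit of a trafficking complex, was higher in cortex at promoter 1 in H3K4me3 (55.9 to 73.0 against 36.5 to 54.7, log2 difference 0.39 ± 0.08 (SE), adjusted p = 2.8e-04), and in H3K27ac (log2 difference 0.28 ± 0.09 (SE), adjusted p = 0.013), the latter with the opposite sign under a window of 2.5 kb. Its promoter 2 had H3K27ac in every library without H3K4me3 in any.

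H3K4me3 and H3K27me3 were found together in at least 3 mice at 22 of the 61 promoters in cortex, beside 13.7% of all promoters, and at 21 in gastrocnemius, beside 15.6%. Both marks stood in every mouse at 12 promoters in cortex (19.7%, beside 7.09% of all promoters) and 9 in gastrocnemius (14.8%, beside 6.82%). The promoters with both marks in every mouse of both tissues were Igf2 promoters 2 to 4, Grb10 promoter 1, Phlda2, Ascl2, Slc22a3 and Zdbf2 promoter 2. Cortex alone had every mouse with both at Cdkn1c, Magel2, Asb4 promoter 2 and Gnasas1, of which Cdkn1c and Magel2 had both marks in 0 gastrocnemius mice. Gastrocnemius alone had every mouse with both at Gnas promoter 1, and Meg3 promoter 1 had both in 8 of 10 gastrocnemius mice and 1 of 9 cortex mice. Where both marks were called their peaks overlapped within the window in every mouse except 1 cortex mouse at Mest promoter 1, over 87.9% of the window at Igf2 promoter 3 in cortex and 92.0% in gastrocnemius, on average.

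At most 22 of the 61 promoters passed a test in both of a pair of marks. Of 16 promoters past a test in both H3K4me3 and H3K27me3, 12 went in opposite directions (75%, beside 90.7% of the 2503 such promoters in all). The 4 others were Ndn, Magel2, Ddc promoter 2 and Dlk1, at which both marks were higher, or in more libraries, in cortex. Without Gnas promoter 2, whose H3K4me3 direction turned with the setting, 11 of 15 went in opposite directions (73.3%). Also without Ppp1r9a, Ndn, Ddc promoter 2 and Dlk1, each with a call lost when some single library was left out, 10 of 11 did (90.9%), and Magel2 was the exception. Of the promoters left out, Ndn, Ddc promoter 2 and Dlk1 had gone the same way in both marks. Meg3 promoter 1 and Peg12 were kept, though their H3K27me3 calls were lost under other settings. Of 22 past a test in both H3K4me3 and H3K27ac, 20 went the same way (opposite in 9.09%, beside 12.2% of all), and the 2 that did not were Gnas promoters 3 and 4, which have a single H3K4me3 value between them. Without these and Trappc9 promoter 1, all with a direction that turned with the setting, 19 of 19 went the same way. Of 12 past a test in both H3K27ac and H3K27me3, 10 went opposite ways (83.3%, beside 94.1% of all), and the others were Ndn and Magel2. Without Ndn and Peg12, each with a call lost when some single library was left out, 9 of 10 went opposite ways (90.0%). The H3K27ac calls of Magel2, the remaining exception, and of Mest promoter 1 were lost under stricter peak rules. These are counts without a test, and the promoters left out were chosen after their values were seen. No such omission was made in the shares of all promoters, so the reduced counts have no matching share. Igf2 promoters 2 to 4, with the same H3K27me3 value in each cortex library, are counted separately. So are Peg3 and Usp29, which share their peaks, and the counts are therefore not of separate measurements.

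Promoter sequences of 32 of the 40 genes were found in the RefSeq table, 50 in all, each of 300 bases. They held a median of 13 CG dinucleotides (0 to 48), beside 7 over the 31396 autosomal sequences in the table. The 29 promoters with H3K4me3 in all 19 libraries held a median of 17, the 10 with H3K4me3 in some libraries 9, and the 8 without H3K4me3 2. For H3K27me3 no such order appeared, with medians of 15, 11 and 16. The hexamer TGCCGC, in which the imprint-protecting factor ZFP57 binds the methylated CG, was searched on both strands and matched in 12 of the 50 sequences (24.0%), beside 11.6% of all. Matches lay among others in Zdbf2 promoter 1 (3), Mest promoter 2 (2), Nap1l5 (2) and Calcr promoter 2 (2). Of the sequences printed above, Grb10 promoter 1 and Meg3 promoter 1 hold 1 each. A match is a run of letters and not a measured binding site. The hexamer holds a CG, and the shares were not adjusted for the higher CG number of the member sequences. The 12 include 2 overlapping sequences of Mest promoter 2.

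A second list of 31 imprinted genes with 42 promoters was chosen for comparison, with earlier results of these data known. Its H3K4me3 was higher in cortex at 9 of 26 tested and in gastrocnemius at 10 (28.9% and 25.4% of all promoters tested). Its H3K27me3 was higher in cortex at 2 of 9 and in gastrocnemius at 1 (26.6% and 22.7% of all), with a median log2 difference of 0.041, and H3K27ac was higher in cortex at 2 of 15 and in gastrocnemius at 3 (26.2% and 24.2% of all). By calls, H3K27me3 was found in more cortex libraries at 6 of 22 and in more gastrocnemius libraries at 2 (15.1% and 19.5% of all), H3K4me3 at 1 and 5 of 9 (33.5% and 22.7%) and H3K27ac at 6 and 6 of 20 (35.0% and 17.2%). Its promoters past a test in both H3K4me3 and H3K27me3 were Gatm and Qpct, with H3K27me3 in gastrocnemius only and more H3K4me3 in cortex, and Tfpi2, Atp10a, Kcnq1, Dcn and Slc38a4, with less H3K4me3 or fewer calls in cortex and more H3K27me3. Slc38a4, an amino acid transporter, had H3K4me3 in 1 of 9 cortex and 10 of 10 gastrocnemius libraries (Fisher's exact test, adjusted p = 3.6e-04) and H3K27me3 in 9 of 9 and 0 of 10 (Fisher's exact test, adjusted p = 1.7e-04). Of 11 genes that maintain imprints or belong to Polycomb, with 15 promoters, H3K4me3 was higher in cortex at 2 of 13 tested and in gastrocnemius at 2, and H3K27ac at 3 and 2 of 13 (shares of all promoters as above). H3K27me3 peaks were found in more gastrocnemius libraries at 3 of 5 tested (19.5% of all), and these 3 are the promoters of 1 gene, Zfp57 (Fisher's exact test, adjusted p = 0.0063, 0.014 and 0.014). Dnmt1 promoter 1 and Zfp445 did not pass (Fisher's exact test, adjusted p = 0.37 and 0.63).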

How the data were processed

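For each of the 3 marks, 9 cortex and 10 gastrocnemius libraries of precipitated chromatin were used, without an input library. Per the labels and the study's methods, the authors mapped the reads with BWA (build mm10), filtered them with SAMtools and called peaks in each library separately with epic2, allowing wider gaps for H3K27me3. The deposited peak lists give each peak's fragment count and a score, both as the authors' caller wrote them. Fragment counts were used for levels and scores only to leave out weak peaks. A peak's fragments were shared into the 1 kb windows by overlap, which averages wide peaks, and an uncalled promoter was set to 0, so signal below the caller's threshold is not seen.

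Levels were tested with edgeR 4.0.16 (R 4.3.3, quasi-likelihood) at autosomal promoters called in all 19 libraries of a mark, with TMM factors from these same promoters. Calls were tested with Fisher's exact test. Both tests were two-sided, with Benjamini-Hochberg adjustment over all promoters tested. Alternatives used DESeq2 1.42.0, limma 3.58.1 (pseudocount of 1 FPM), other windows, peak filters and omitted libraries. The scripts were tested on simulated data. Mouse codes place 9 animals in both tissues. Correlations of same-mouse deviations ran from -0.096 to 0.079, and a fit with mouse as a block was an alternative. Every member and every promoter was described. The members, the other imprinted genes, the imprint maintenance and Polycomb genes, and the cortex, gastrocnemius and other cell markers were chosen with earlier results of these data known. Promoter sequences are from RefSeq on GRCm38.p6.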

Additional observations from a re-analysis of the deposited data

Results flagged for a closer look

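Of 180 groups of 9 or 10 libraries examined, 11 (6.11%) had 1 library far from the others by Dixon's test, which chance gives in about 1 in 20 groups. Levels are in FPM. For H3K4me3 in cortex, replicate 7 stood at 24.9 at Nnat (others 11.2 to 14.6) and at 13.5 at Impact promoter 2 (others 16.8 to 19.2). Replicate 1 stood at 23.9 at Gnas promoters 3 and 4, which share 1 peak (others 33.5 to 39.7). In gastrocnemius, H3K4me3 of replicate 1 stood at 54.9 at Ube3a (others 77.3 to 92.6).

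For H3K27ac, cortex replicate 4 stood at 8.47 at Mest promoter 2 (others 4.07 to 6.24) and cortex replicate 6 at 6.60 at Inpp5f promoter 1 (others 8.38 to 10.1). Gastrocnemius replicate 7 stood at 14.0 at Copg2 (others 7.79 to 10.5) and replicate 6 at 5.26 at Igf2 promoter 2 (others 1.91 to 3.42). For H3K27me3 in gastrocnemius, replicate 8 stood at 0.205 at Gnasas1 (others 7.33 to 11.7) and replicate 9 at 6.72 at Igf2 promoter 3 (others 9.05 to 10.9).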

How the results depend on the processing

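Numbers of imprinted promoters past the tests ranged, when single libraries were left out, from 28 to 31 for H3K4me3 level (29 with all libraries), 13 to 15 for H3K27ac level (13), 12 to 14 for H3K27me3 level (13), 4 to 8 for H3K4me3 calls (8), 16 to 18 for H3K27ac calls (17) and 6 to 9 for H3K27me3 calls (9). With mouse as a replicate block the levels gave 29, 15 and 12, and Gnas promoter 2 in H3K27me3 (0.14) was lost. H3K4me3 calls fell to 4 without gastrocnemius replicate 9 or 10, to 5 without replicate 1, 2, 5 or 8, to 4 without the libraries named with an S number and to 5 with a window of 2.5 kb. H3K27me3 calls fell to 4 without the S-number libraries, where fewer libraries are compared. Promoters with a peak in at least 3 libraries, more promoters by construction, gave 31 for H3K27ac level and 26 for H3K27me3 level. Both marks in every mouse held at 12 promoters in cortex (22 with at least 3 mice) and 9 in gastrocnemius (21).

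Of the other values, 879 kept direction and side of the threshold, 69 newly passed, 54 no longer passed and 18 changed sign. Under limma Nnat stood at 0.58 for H3K4me3. Scaled by library sizes alone, H3K4me3 gave 0.24 at Copg2, 0.0033 at Ube3a and 0.31 at Impact promoter 2, and under limma 0.26, 0.0043 and 0.31. With whole peak counts, H3K4me3 gave -0.51 at Gnas promoters 3 and 4, 0.072 at Copg2, 0.043 at Ube3a, 0.15 at Kcnq1ot1 and 0.079 at Impact promoter 1, and H3K27ac gave -0.087 at Trappc9 promoter 1 (-0.082 with 2.5 kb). H3K4me3 calls at Gnas promoter 2 differed by 11.1 percentage points without the lowest-scoring peaks, 11.1 with equally many top peaks and 20 with 2.5 kb. The cause of these changes was not tested. The calls lost when some single libraries were left out were H3K4me3 at Dlk1, Gnasas1, Grb10 promoter 2, Gnas promoter 2 and Peg3, H3K27ac at Peg12, and H3K27me3 at Ndn, Ddc promoter 2, Ppp1r9a and Gnas promoter 2. Stricter peak rules also lost the calls of H3K4me3 at Ddc promoter 2 and Snrpn promoter 5, of H3K27ac at Magel2, Meg3 promoter 2, Mest promoter 1 and Grb10 promoter 2, and of H3K27me3 at Peg12. Scaling by library sizes lost H3K27me3 levels at Dlk1, Gnas promoters 1 and 2 and Slc22a3. Without the S-number libraries the results no longer past the threshold were H3K4me3 at Peg3, Usp29, Gnasas1, Gnas promoter 2, Grb10 promoter 2 and Dlk1, H3K27ac at Peg12, and H3K27me3 at Gnas promoter 2, Slc22a3, Ppp1r9a, Mest promoter 1, Ndn, Ddc promoter 2 and Meg3 promoter 1. Without cortex replicate 9, the shallowest of H3K27ac, that mark gave 18 promoters by calls and 14 by level. Without gastrocnemius replicate 5, the deepest of H3K27me3, that mark gave 8 by calls, with Ndn lost, and 12 by level. Apart from these omissions, whether calls depend on a library's depth was not tested.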
